A study of Homo sapiens with 12 samples.

Results

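The genes described here are 10 secreted factors and receptors through which bone-forming cells act on osteoclasts, the cells that resorb bone: TNFRSF11B, TNFSF11, CSF1, LIF, IL6, IL11, IL6ST, CXCL12, CCL2 and CXCL8. They are 10 of the 19775 genes that at least 1 probe set of the array named alone, and for each gene the probe set with the highest mean over all 12 arrays was used, out of 24 probe sets that named a member. RNA came from SaOS-2, an established human osteosarcoma cell line with osteoblast features, and from 2 clones of it, wt22 and wt36, stably transfected with the membrane glycoprotein CD99 and labelled Sa/CD99. Each was profiled on Affymetrix GeneChips before (day 0) and after 7 and 14 days in osteogenic medium, which gave 6 groups of 2 arrays. By the study's methods, the osteogenic medium held less serum than the routine medium. In comparisons with day 0 the osteogenic supplements, the serum and the time in culture thus cannot be told apart. The Sa/CD99 pair of a day was 1 array of each clone. The SaOS-2 pair was numbered 1 and 2 with no statement that the cultures were separate. The p-values thus measure the spread between these arrays, which may be technical in SaOS-2. That spread was pooled over all 6 groups for each probe set. Differences within a pair had a standard deviation of 0.392 to 0.417 in Sa/CD99 and 0.120 to 0.140 in SaOS-2. Pooling thus gives the clones, on average, a smaller error than their own pairs would. In fits that left out 1 array, an array outside the groups compared changed only this pooled error and the adjustment. The transfectants were selected with neomycin, and their reference was the parental line rather than a line carrying an empty vector.

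As a check of the labels, the array carried 2 probe sets that named CD99 alone. One gave 6.67 to 8.88 on the log2 scale in the 6 arrays labelled Sa/CD99, against 11.26 to 11.88 in SaOS-2, with log2 differences of −4.60, −4.17 and −3.23 at days 0, 7 and 14 (adjusted p of 0.0024, 0.00224 and 0.00843). The other differed by 0.03 to 0.07 and passed no test. The first thus went against the label. The second, at 12.32 to 12.74 in those arrays and 12.29 to 12.66 in SaOS-2, did not show the clearly higher signal that the label implies. The study's methods describe a separate PCR check of CD99 in all profiled samples, which was not analysed here. Whether either probe set covers the transfected sequence was not known, so every direction below is that of the arrays labelled Sa/CD99. The clones also differed from each other more than the parental arrays did: the 2 arrays of a group correlated at 0.958 to 0.965 in Sa/CD99 and at 0.995 to 0.997 in SaOS-2 over the 12894 probe sets tested. Of 12 osteoblast markers on the array, 8 (RUNX2, SP7, ALPL and COL1A1 among them) were above a signal of 100 in all arrays. SPP1 and PHOSPHO1 were above it in no array, IBSP in 10 arrays (log2 values of 3.26 to 10.67) and MSX2 in 5. The summed signal of the 12 was 20133 to 34061 in the arrays labelled Sa/CD99 and 21557 to 26894 in SaOS-2. ALPL, tissue-nonspecific alkaline phosphatase, was called between the lines at day 0 (log2 −0.82, SE 0.15, adjusted p = 0.0298). That call was lost without either clone at day 0 or any 1 of the 6 SaOS-2 arrays. The SaOS-2 arrays of days 7 and 14 enter only the error of that difference. None of 11 osteoclast markers was above 100 in all arrays, 9 of them in no array (TNFRSF11A, CTSK and CALCR included), with sums of 480 to 566 in the arrays labelled Sa/CD99 and 503 to 615 in SaOS-2. None of 15 leukocyte markers was either, PTPRC, CD14 and TYROBP being at or below 100 in every array, with sums of 415 to 488 in the arrays labelled Sa/CD99 and 413 to 481 in SaOS-2.

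Osteoclasts arise from myeloid precursors that need CSF1 and RANKL (the product of TNFSF11), both made by osteoblast-lineage cells. Osteoprotegerin, the product of TNFRSF11B, is a soluble decoy that binds RANKL and holds osteoclast formation back. LIF, IL6 and IL11 signal through the shared receptor chain gp130, encoded by IL6ST, and in osteoblasts these cytokines can raise RANKL, while the chemokines CXCL12, CCL2 and CXCL8 attract osteoclast precursors or other myeloid cells.

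The values are log2 signals normalised by RMA. A probe set entered the main test if its signal was above 100 (6.64 on the log2 scale) in over 25% of the arrays and its interquartile range exceeded the median of all probe sets; a gene was taken as changed at an adjusted p of at most 0.05 with at least a 1.5-fold difference. TNFRSF11B, CSF1, LIF, IL11 and IL6ST passed both filters. TNFSF11, IL6, CXCL12, CCL2 and CXCL8 did not, because TNFSF11, IL6, CCL2 and CXCL8 were at or below 100 in all 12 arrays and CXCL12 in 9 of them. Those 5 genes were read from the same model fitted to all 54613 probe sets. Being values of whole cultures, they do not tell fewer cells making a transcript from less of it per cell. The plot of the 10 genes by day shows which of them lay above the signal limit.

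**Figure D1:**
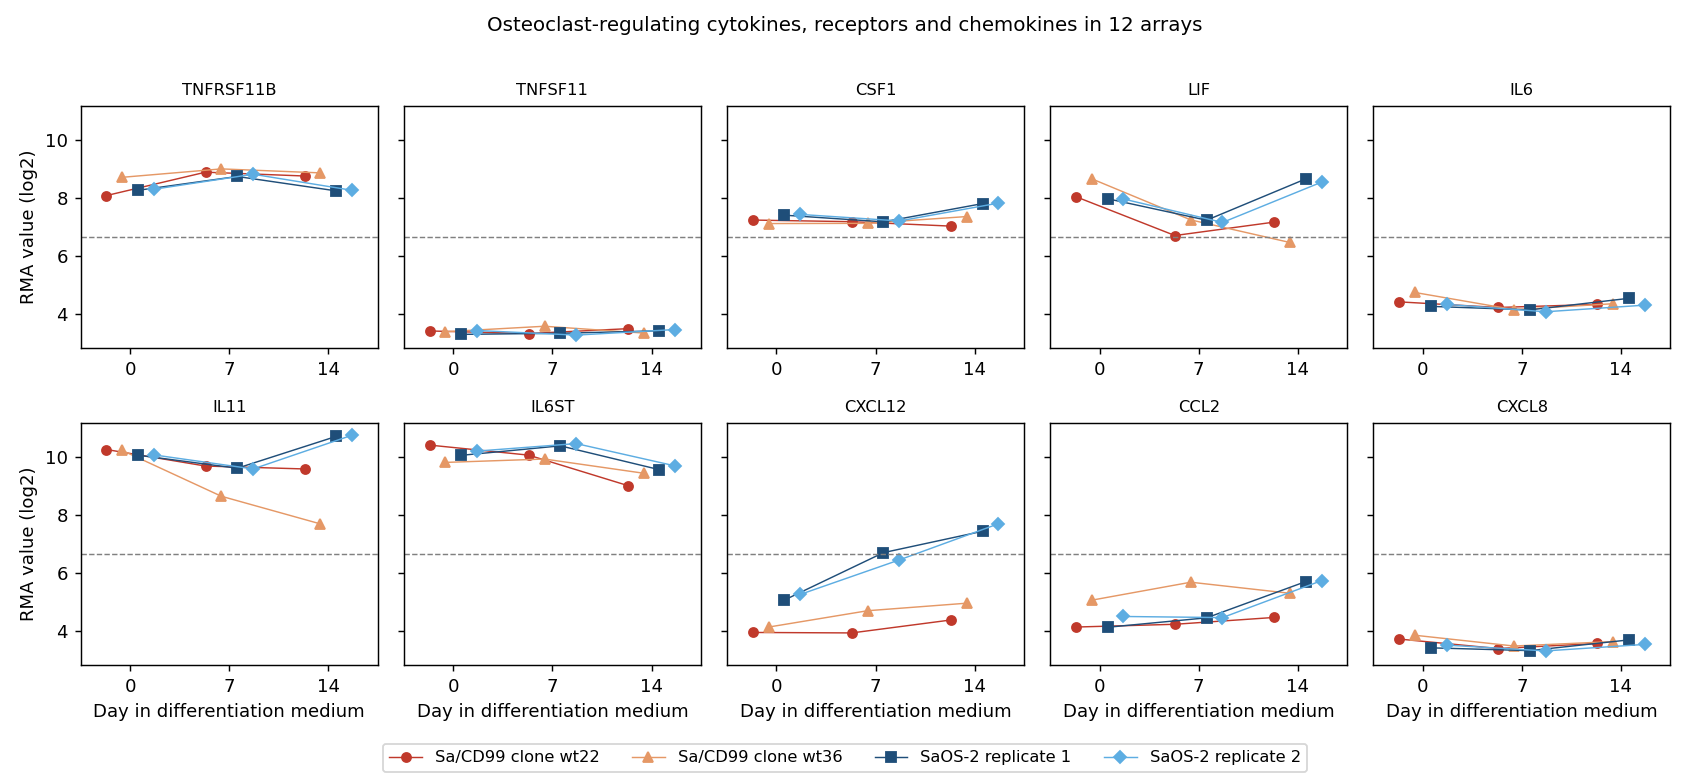
Log2 RMA value (vertical axis) of the 10 genes by day (horizontal axis), 1 point per array, with the arrays labelled Sa/CD99 (red and orange, clones wt22 and wt36) left of SaOS-2 (blue) at each day; the dashed line is a signal of 100. TNFSF11, IL6, CCL2 and CXCL8 lie below the line in all 12 arrays, CXCL12 is above it only in 3 SaOS-2 arrays of days 7 and 14, and LIF and IL11 part between the lines at day 14.

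Between the lines, members were called at days 7 and 14 and not at day 0. At day 0 none of the 5 filtered members was called, with 1.47% of the filtered probe sets called in that comparison, and none of the 10 in the unfiltered fit, with 0.515% called. At day 7, the filtered count was again 0 (1.81% of probe sets called), and the unfiltered fit called CXCL12 as lower (0.546% called). At day 14 CSF1 and LIF were called as lower among the 5 filtered members (1.46% called), and LIF and CXCL12 among the 10 in the unfiltered fit (0.428% called). No member was called as higher in the arrays labelled Sa/CD99 on any day. The median difference of the 5 filtered members was 0.11, −0.22 and −0.62 at days 0, 7 and 14, beside −0.01, −0.03 and −0.01 over all probe sets tested.

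**Figure D2:**
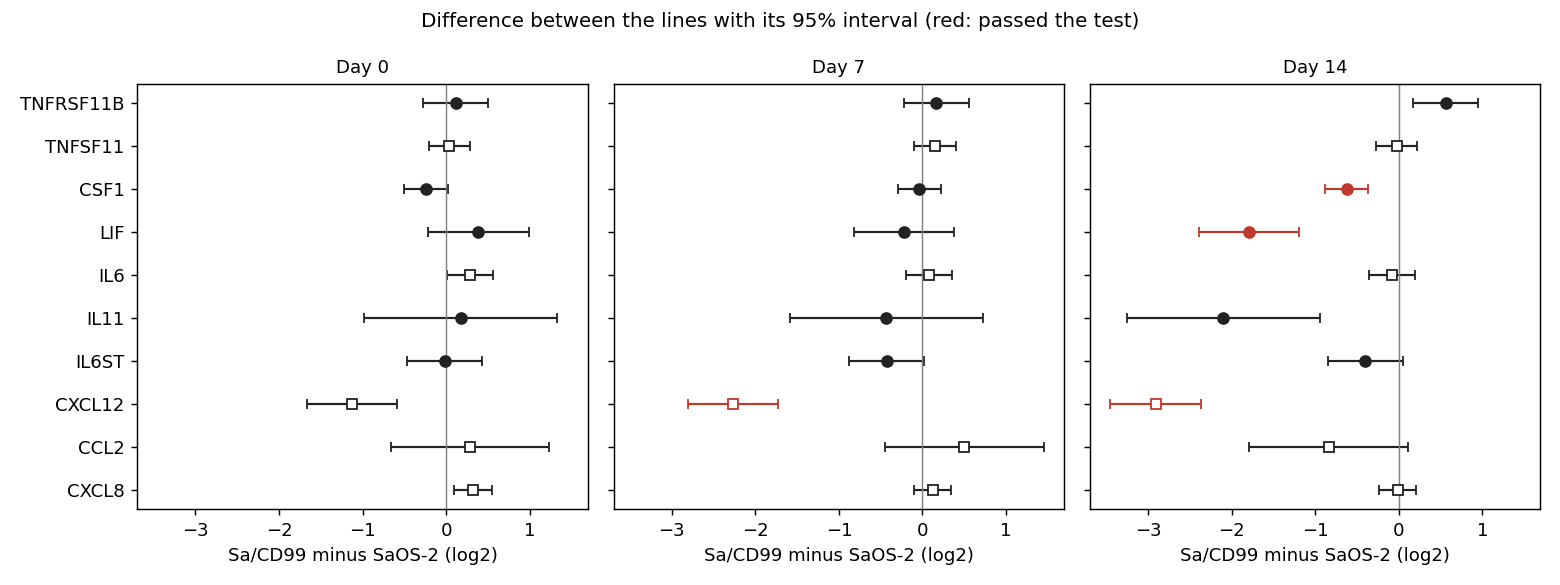
Difference Sa/CD99 minus SaOS-2 (log2, horizontal axis) of each gene at days 0, 7 and 14, with its 95% interval from the model; filled circles come from the filtered fit, open squares from the fit without filters, and red marks a passed test. At day 14 the intervals of CXCL12, IL11, LIF and CSF1 lie wholly below 0 and that of TNFRSF11B wholly above it, while IL11 and TNFRSF11B did not pass after adjustment.

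TNFRSF11B was measured well above the signal limit in every array. Its values were 8.09 and 8.72 at day 0, 8.90 and 9.01 at day 7, and 8.77 and 8.88 at day 14 in the arrays labelled Sa/CD99 (clone wt22 before wt36 throughout), against 8.27 and 8.31, 8.75 and 8.83, and 8.25 and 8.27 in SaOS-2. The lines overlapped at day 0 and did not at day 14, where both clones stayed near their day 7 level and SaOS-2 was back at its day 0 level. The day 14 difference of 0.56 (SE 0.17, 95% interval 0.17 to 0.95) did not pass (adjusted p = 0.149). By day 7 the gene stood 0.55 above day 0 in the arrays labelled Sa/CD99 (adjusted p = 0.0344) and 0.50 above it in SaOS-2 (adjusted p = 0.0439), and in SaOS-2 day 14 stood 0.53 under day 7 (log2 change −0.53, adjusted p = 0.0307); all 3 changes were smaller than 1.5-fold. Its second probe set, which also passed the filters, differed between the lines by 0.31, 0.37 and 0.57 at the 3 days and passed in none. It did not show the changes with time. By day 7 it changed by 0.09 in the arrays labelled Sa/CD99 (adjusted p = 0.79) and by 0.04 in SaOS-2 (adjusted p = 0.907). In SaOS-2 its change at day 14 against day 7 was −0.09 (adjusted p = 0.779).

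TNFSF11, which encodes RANKL itself, was at background in both lines. Its values lay between 3.26 and 3.57 over all 12 arrays, far under the limit of 6.64, and the line differences were 0.04, 0.15 and −0.02. Its receptor RANK (TNFRSF11A) was likewise between 3.83 and 4.29. A difference in either transcript was not detectable at these signals.

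CSF1, the survival and growth factor of osteoclast precursors, separated the lines at day 14. Its values were 7.24 and 7.12 at day 0, 7.19 and 7.13 at day 7, and 7.03 and 7.36 at day 14 in the arrays labelled Sa/CD99, against 7.41 and 7.44, 7.18 and 7.21, and 7.81 and 7.83 in SaOS-2. The clones hardly moved between days, while both SaOS-2 arrays of day 14 lay above all others. CSF1 was 1.54-fold lower in the arrays labelled Sa/CD99 at day 14 (log2 −0.62, SE 0.11, adjusted p = 0.034), and within SaOS-2 it rose by 0.62 at day 14 against day 7 (adjusted p = 0.00323). Arrays of days 0 and 7 enter the error of a day 14 line difference but not the difference itself. The line difference is close to the limits. It was lost in 7 of the 12 fits that left out 1 array, namely without clone wt22 at day 14 (log2 −0.46, adjusted p = 0.0869) and without any 1 of the 6 SaOS-2 arrays (−0.61 to −0.63, adjusted p of 0.0766 to 0.262), and it did not pass in the unfiltered fit (adjusted p = 0.0527). The other 3 probe sets of CSF1 were at or below 100 and differed by −0.15, −0.11 and −0.08 at day 14, with no call.

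A wider list of 27 genes of the RANKL and CSF1 axis, of which 13 were tested, gave no call between the lines at days 0 and 7. At day 14, 1 was called higher and 2 lower. Of all filtered probe sets, 1.47%, 1.81% and 1.46% were called at days 0, 7 and 14. The median difference of the list at day 14 was −0.185, beside −0.0079 over all probe sets tested. EFNB2, the ephrin ligand through which osteoclasts and osteoblasts exchange signals, was 8.43 and 7.64 in the arrays labelled Sa/CD99 at day 14, against 9.73 and 9.77 in SaOS-2 (log2 −1.71, SE 0.34, adjusted p = 0.0423). WNT5A, a noncanonical Wnt ligand made by osteoblast-lineage cells, had a log2 difference of −0.63 (SE 0.12, adjusted p = 0.0331), and EPHB4, the receptor of EFNB2 on osteoblasts, was higher by 0.61 (SE 0.11, adjusted p = 0.0338). The pair of ligand and receptor thus differed in opposite directions on that day. These calls were kept in 5, 4 and 4 of the 12 fits that left out 1 array. They were lost without any 1 of the 6 SaOS-2 arrays and without clone wt36 at day 14, and those of WNT5A and EPHB4 also without clone wt22 at day 14. Among these SaOS-2 arrays, those of days 0 and 7 enter only the error of the day 14 differences.

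PTGES of the same list, which makes prostaglandin E2, an inducer of RANKL in osteoblasts, was picked after its values were seen for the size of its change with time. It was 8.86 and 8.93 at day 0, 6.30 and 6.23 at day 7 and 5.94 and 6.54 at day 14 in the arrays labelled Sa/CD99, against 8.75 and 8.67, 6.25 and 5.96, and 6.58 and 6.85 in SaOS-2. It fell by day 7 in both lines (log2 −2.63, adjusted p = 3.79e-05, in the arrays labelled Sa/CD99 and −2.61, adjusted p = 7.51e-05, in SaOS-2), and no line difference passed on any day (adjusted p of 0.788, 0.627 and 0.243). IL1R1 of that list, also named after its values were seen, rose by day 7 in both lines. Its changes were 2.34 (adjusted p = 0.000175) in the arrays labelled Sa/CD99 and 2.78 (adjusted p = 0.000118) in SaOS-2. Of the 13 tested genes, 1 was called higher and 1 lower by day 7 in the arrays labelled Sa/CD99, beside 18.2% of probe sets. In SaOS-2 they were 1 and 2, beside 21.4%. By day 14 these counts were 1 and 4, beside 19.4%, and 2 and 2, beside 14.9%.

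LIF, a gp130 cytokine of osteoblasts and tumour cells, showed the clearest split among the filtered members. Its values were 8.05 and 8.67 at day 0, 6.71 and 7.25 at day 7, and 7.17 and 6.47 at day 14 in the arrays labelled Sa/CD99, against 7.98 and 7.97, 7.24 and 7.16, and 8.67 and 8.56 in SaOS-2. Every day 7 array was under every day 0 array, and at day 14 both clones stayed low and both SaOS-2 arrays were above their day 0 level. LIF fell at day 7 against day 0 in the arrays labelled Sa/CD99 (log2 −1.38, SE 0.27, adjusted p = 0.0046) and in SaOS-2 (−0.78, adjusted p = 0.0423). Between day 7 and day 14 it rose in SaOS-2 by 1.41 (adjusted p = 0.00353), while the change in the arrays labelled Sa/CD99 was −0.16 (adjusted p = 0.658).

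At day 14, LIF in the arrays labelled Sa/CD99 was thus 3.46-fold under SaOS-2 (log2 −1.79, SE 0.27, 95% interval −2.39 to −1.19, adjusted p = 0.0136), against 0.39 and −0.22 at days 0 and 7, which did not pass (adjusted p of 0.637 and 0.651). The call was lost without SaOS-2 array 1 of day 14 (−1.74, adjusted p = 0.148) or array 2 (−1.85, adjusted p = 0.131), and kept without any other array. The direct test of a different change by day 14, the interaction of line and day, gave −2.18 (SE 0.38, unadjusted p = 0.000247) and did not pass after adjustment (adjusted p = 0.398). That test called 0.0155% of the filtered probe sets, 0.00732% of all probe sets, and no member on the probe set that stands for the gene. At day 7 it called 0% of both. The SaOS-2 decline at day 7 was lost without any 1 of the 6 SaOS-2 arrays (−0.74 to −0.82), of which those of day 14 enter only its error.

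IL11, the gp130 cytokine that promotes osteoclast formation in marrow and is known from bone metastases, moved like LIF but unevenly between the clones. Clone wt22 gave 10.27, 9.70 and 9.59 at days 0, 7 and 14, and clone wt36 gave 10.23, 8.65 and 7.69, against 10.07, 9.62 and 10.72 in SaOS-2 array 1 and 10.08, 9.59 and 10.76 in array 2. All 4 values of day 0 lay between 10.07 and 10.27; at day 14 both clones were under both SaOS-2 arrays, wt36 by far the most. The day 14 difference of −2.10 was the largest of the filtered members, but its error was large as well (SE 0.51, 95% interval −3.26 to −0.94) and it did not pass (adjusted p = 0.0816). Without clone wt22 at day 14 the difference was −3.05, and without clone wt36 it was −1.15. With array weights by line it passed (adjusted p = 0.0218).

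The second probe set of IL11, which varied less between the clones, passed. It gave 7.95 and 7.90, 7.19 and 6.88, and 7.37 and 6.74 at days 0, 7 and 14 in the arrays labelled Sa/CD99, against 7.68 and 7.63, 7.33 and 7.24, and 8.02 and 8.08 in SaOS-2. The arrays labelled Sa/CD99 were lower at day 14 by a log2 difference of −0.997 (SE 0.18, adjusted p = 0.033). Both probe sets thus put the clones under SaOS-2 at day 14, as the plot of both probe sets shows.

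**Figure D3:**
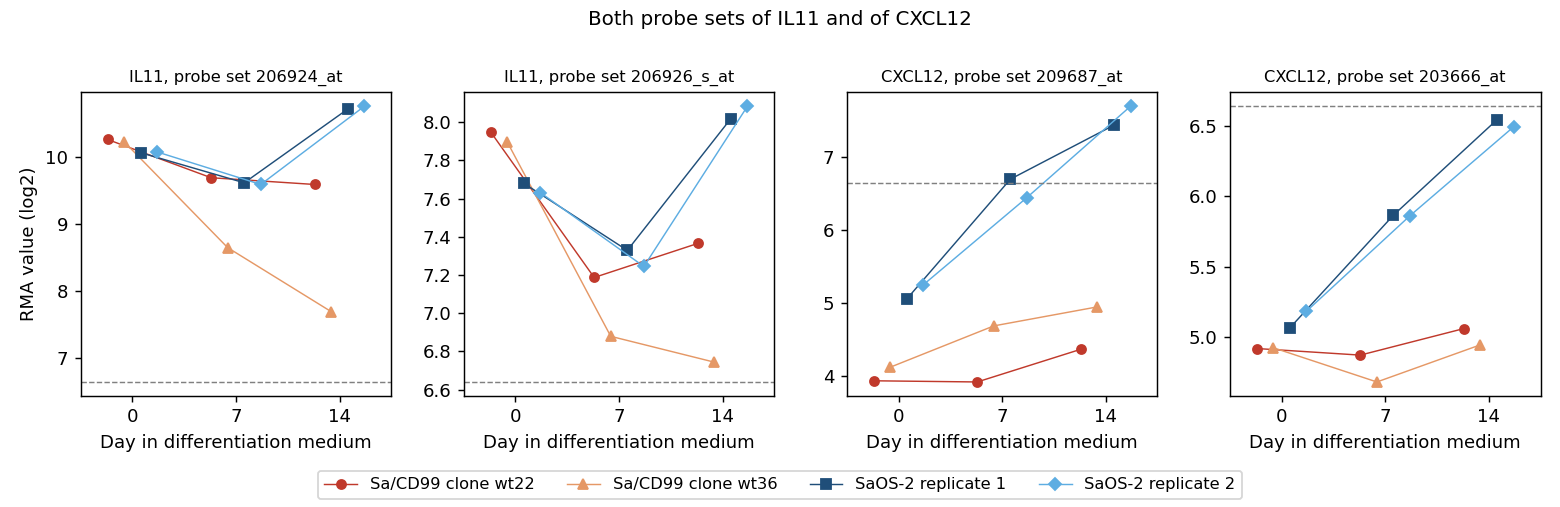
Log2 RMA value (vertical axis, own scale in each panel) by day for both probe sets of IL11 and both of CXCL12, 1 point per array, with arrays labelled Sa/CD99 (red and orange) left of SaOS-2 (blue); the dashed line is a signal of 100. Lines join arrays of the same clone or replicate number; in all 4 panels both SaOS-2 arrays of day 14 lie above both clones, and in the first IL11 panel clone wt36 falls to 7.69 while clone wt22 stays at 9.59.

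Over time in the arrays labelled Sa/CD99, IL11 fell by day 14 on the first probe set (log2 −1.61, SE 0.51, adjusted p = 0.0355) and on the second (−0.87, adjusted p = 0.00724). The call on the first probe set was lost in 9 of the 12 fits that left out 1 array. The change was smallest without clone wt36 at day 14 (−0.66), and −1.59 and −1.62 without either clone at day 0. Without any 1 of the 6 SaOS-2 arrays, which enter only its error, the change on the first probe set stayed at −1.61. The day 7 change of the first probe set, −1.08 (adjusted p = 0.129), passed with the clone as a block (adjusted p = 0.0351) and without either clone at day 14 (adjusted p = 0.0152). On the second probe set the day 7 change of −0.89 (SE 0.18, adjusted p = 0.00613) passed in the main test. In SaOS-2 the first probe set stood 1.14 higher at day 14 than at day 7 (adjusted p = 0.089, or 0.0222 with the replicate as a block and 0.00935 without either clone at day 14), and the second rose by 0.76 (adjusted p = 0.00897).

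The promoters of the members give the sequence context of these patterns. RefSeq promoter windows (GRCh38.p14) were at hand for 6 of the 10 genes, CXCL8, IL6ST, IL6, CXCL12, TNFSF11 (with 2 start sites) and IL11, and were read over the 250 bases before the start site. Motifs of factors that act on cytokine genes were searched on both strands: the AP-1 motif TGANTCA, the STAT motif TTCNNNGAA and the NF-kB consensus. The windows of IL11, which parted between the lines, of CXCL12, which differed most, and of IL6, which stayed at background, follow 5′ to 3′ on the gene's strand, with any match to a motif in capitals:
IL11, chr19:55370464-55370713, minus strand: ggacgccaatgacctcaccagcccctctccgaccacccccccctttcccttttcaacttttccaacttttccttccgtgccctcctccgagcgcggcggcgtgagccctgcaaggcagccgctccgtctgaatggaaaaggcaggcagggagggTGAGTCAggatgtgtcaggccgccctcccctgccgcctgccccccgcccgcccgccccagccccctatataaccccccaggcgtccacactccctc
CXCL12, chr10:44385098-44385347, minus strand: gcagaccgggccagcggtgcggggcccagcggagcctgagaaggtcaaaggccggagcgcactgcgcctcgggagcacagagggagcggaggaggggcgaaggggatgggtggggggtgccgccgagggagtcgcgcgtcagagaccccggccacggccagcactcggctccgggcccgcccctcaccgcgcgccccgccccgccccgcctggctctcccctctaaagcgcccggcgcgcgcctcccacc
IL6, chr7:22726950-22727199, plus strand: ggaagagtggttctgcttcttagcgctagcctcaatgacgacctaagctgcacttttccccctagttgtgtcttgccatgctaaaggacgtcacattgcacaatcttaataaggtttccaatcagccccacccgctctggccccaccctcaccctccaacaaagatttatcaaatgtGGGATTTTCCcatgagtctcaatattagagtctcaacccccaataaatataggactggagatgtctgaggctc

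The IL11 window held 1 AP-1 match, starting 96 bases before the start site, and CXCL8 held 1 at 137 bases. IL6 held 1 NF-kB match at 73 bases, IL6ST 1 at 53 and the downstream start site of TNFSF11 1 at 176, and its upstream start site held the only STAT match, at 197 bases. The CXCL12 window held none of the motifs. Of 35116 promoters read over the same length, 6.57% held the AP-1 motif, 6.57% the STAT motif and 9.96% the NF-kB consensus. A match is a string of letters and was not linked to any measured change.

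IL6 itself was at background in all 12 arrays, with values of 4.07 to 4.74 and line differences of 0.28, 0.08 and −0.08, none of which passed. IL6 is the best known osteoclast-promoting member of the family, and a change in it could not be read at these signals.

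IL6ST, which encodes the gp130 chain that LIF, IL6 and IL11 share, was strongly expressed in both lines and moved with time in both. Its values were 10.42 and 9.82 at day 0, 10.07 and 9.94 at day 7, and 9.02 and 9.45 at day 14 in the arrays labelled Sa/CD99, against 10.07 and 10.21, 10.39 and 10.47, and 9.57 and 9.70 in SaOS-2. Day 14 was the lowest point in every series. It fell at day 14 against day 7 in the arrays labelled Sa/CD99 (log2 −0.77, SE 0.20, adjusted p = 0.0149) and in SaOS-2 (−0.80, SE 0.20, adjusted p = 0.0103), and against day 0 in the arrays labelled Sa/CD99 (−0.89, adjusted p = 0.00915); in SaOS-2 the change against day 0 was −0.51 (adjusted p = 0.0759). The line differences of −0.02, −0.43 and −0.40 did not pass on any day (adjusted p of 0.985, 0.243 and 0.343).

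Of the 7 probe sets of IL6ST, 3 passed the filters. The second fell at day 14 against day 7 in the arrays labelled Sa/CD99 (−0.84, adjusted p = 0.0133) and in SaOS-2 (−0.96, adjusted p = 0.00605), and the third changed by −0.34 and −0.43 without passing (adjusted p of 0.42 and 0.279). On the main probe set the day 14 call against day 7 was lost without clone wt22 at day 7 (−0.70, adjusted p = 0.0608) or at day 14 (−0.56, adjusted p = 0.0922) in the arrays labelled Sa/CD99, and without SaOS-2 array 2 of day 7 (−0.76, adjusted p = 0.0597) or array 1 of day 14 (−0.73, adjusted p = 0.0662) in SaOS-2. Against day 0, the Sa/CD99 call was lost without clone wt22 at day 14 (−0.67, adjusted p = 0.0544).

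Across days, the counts of called members sat near the share of all probe sets in most comparisons. In the arrays labelled Sa/CD99, 1 of 5 filtered members (LIF, lower) was called at day 7 against day 0, where 18.2% of probe sets were called, 3 (LIF, IL11 and IL6ST, all lower) at day 14 against day 0, where 19.4% were, and 1 (IL6ST, lower) at day 14 against day 7, where 18.6% were. In SaOS-2 the counts were 1 (LIF, lower) at day 7 against day 0 beside 21.4%, 0 at day 14 against day 0 beside 14.9%, and 3 (CSF1 and LIF higher, IL6ST lower) at day 14 against day 7 beside 22.9%. With the clone as a block, 2 members (LIF and IL11) were called at day 7 against day 0 in the arrays labelled Sa/CD99. In the unfiltered fit of all 10 members, the arrays labelled Sa/CD99 gave 1 call beside 6.99%, 2 beside 5.26% and 1 beside 7.60% of probe sets in the same order of comparisons, and SaOS-2 gave 1 beside 7.96%, 1 beside 4.49% and 4 beside 9.25%; all 3 of the SaOS-2 comparisons included CXCL12 as higher. Comparisons of a day within one line share arrays, so their counts are not independent.

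**Figure D4:**
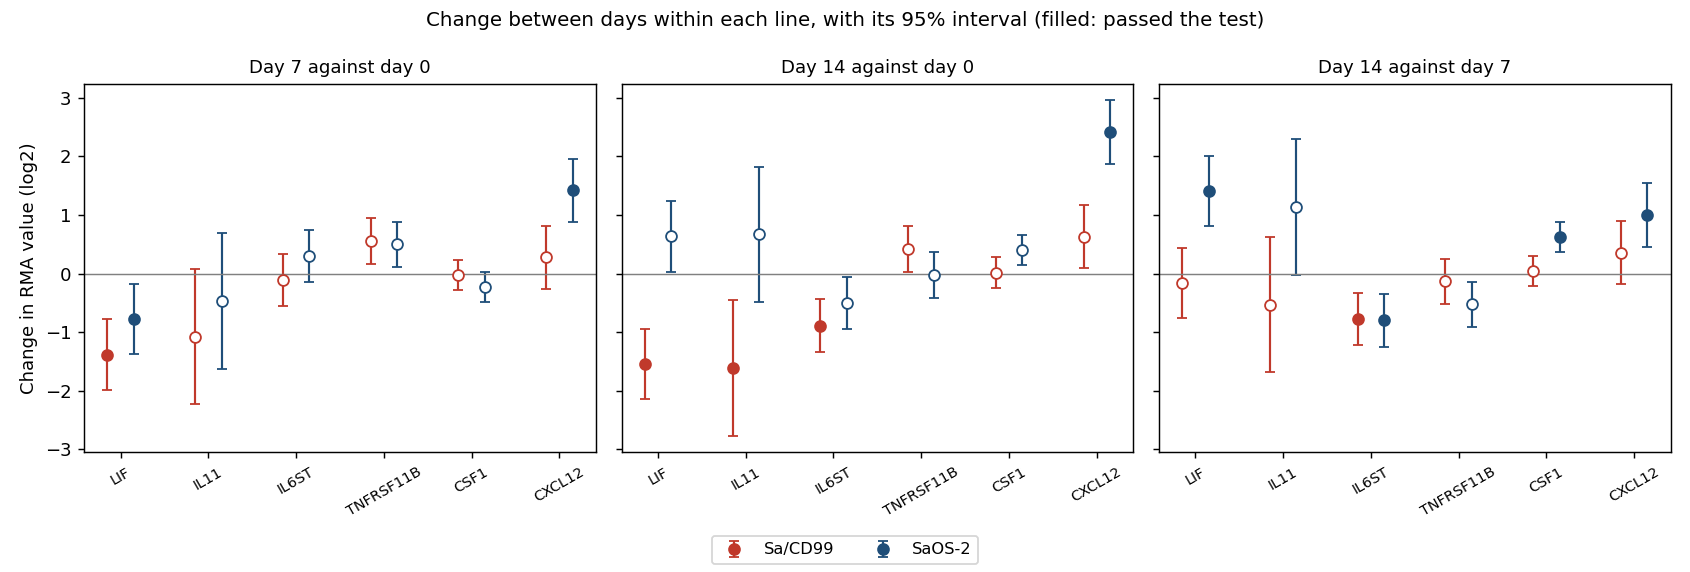
Change in log2 RMA value between days (vertical axis) for 6 members, with its 95% interval, in the arrays labelled Sa/CD99 (red, left) and SaOS-2 (blue, right); filled points passed the test (CXCL12 from the fit without filters). LIF and IL11 lie below 0 in Sa/CD99 and above 0 in SaOS-2 at day 14 against day 0, CXCL12 passed in SaOS-2 alone, and IL6ST fell in both lines at day 14 against day 7.

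Around these ligands, 16 of 32 genes of gp130 signalling were tested and none was called between the lines on any day. Between the lines 1.47%, 1.81% and 1.46% of the filtered probe sets were called at days 0, 7 and 14. With time, 5 of the 16 were called higher and 1 lower at day 7 against day 0 in the arrays labelled Sa/CD99, where 18.2% of probe sets were called. In SaOS-2 the counts were likewise 5 and 1, beside 21.4%. At day 14 against day 0 they were 5 and 1 in the arrays labelled Sa/CD99, beside 19.4%, and 4 and 1 in SaOS-2, beside 14.9%. The median change of the list by day 7 was 0.36 in the arrays labelled Sa/CD99 and 0.54 in SaOS-2, beside −0.01 and 0.0045 over all probe sets tested.

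Among the genes behind these counts, named here after their values were seen, were feedback inhibitors and receptor chains. SOCS3, which shuts off gp130 signals, was 9.13 and 8.89 at day 0, 9.72 and 10.06 at day 7, and 10.67 and 10.59 at day 14 in the arrays labelled Sa/CD99, against 9.08 and 9.37, 10.18 and 10.08, and 10.77 and 10.83 in SaOS-2. It climbed in every series, by 1.62 at day 14 against day 0 in the arrays labelled Sa/CD99 (adjusted p = 0.00017) and by 1.57 in SaOS-2 (adjusted p = 0.000195). SOCS1, a related inhibitor, rose by 1.55 in the arrays labelled Sa/CD99 (adjusted p = 0.000108) and by 1.45 in SaOS-2 (adjusted p = 0.000146). STAT3, the transcription factor that gp130 activates, rose by day 7 in the arrays labelled Sa/CD99 (0.82, adjusted p = 0.00113), and its SaOS-2 change of 0.54 (adjusted p = 0.00703) was under 1.5-fold.

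IL6R, the specific receptor chain for IL6, was the 1 gene of the list that fell in both lines. It was 8.68 and 8.82 at day 0, 7.78 and 7.70 at day 7, and 7.49 and 7.78 at day 14 in the arrays labelled Sa/CD99, against 8.83 and 8.83, 7.47 and 7.51, and 7.37 and 7.38 in SaOS-2, changes by day 14 of −1.11 (adjusted p = 0.000264) and −1.45 (adjusted p = 7.93e-05). LIFR, the specific chain for LIF, rose by day 7 in the arrays labelled Sa/CD99 (1.04, adjusted p = 0.017, lost without clone wt36 at day 0 or clone wt22 at day 7) and in SaOS-2 (1.26, adjusted p = 0.00667). IL11RA, the chain for IL11, instead split the clones: wt22 gave 7.59, 8.13 and 8.21 and wt36 gave 5.46, 5.37 and 5.22 at days 0, 7 and 14, against 6.97 to 7.55 in SaOS-2. Clone wt36, which had the lowest IL11 at days 7 and 14, had IL11RA under the signal limit on all days. IL11RA was already apart at day 0, when IL11 was 10.27 in wt22 and 10.23 in wt36. A link between the 2 genes was not tested. With an SE of 1.08 no line difference of IL11RA could be called.

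**Figure D5:**
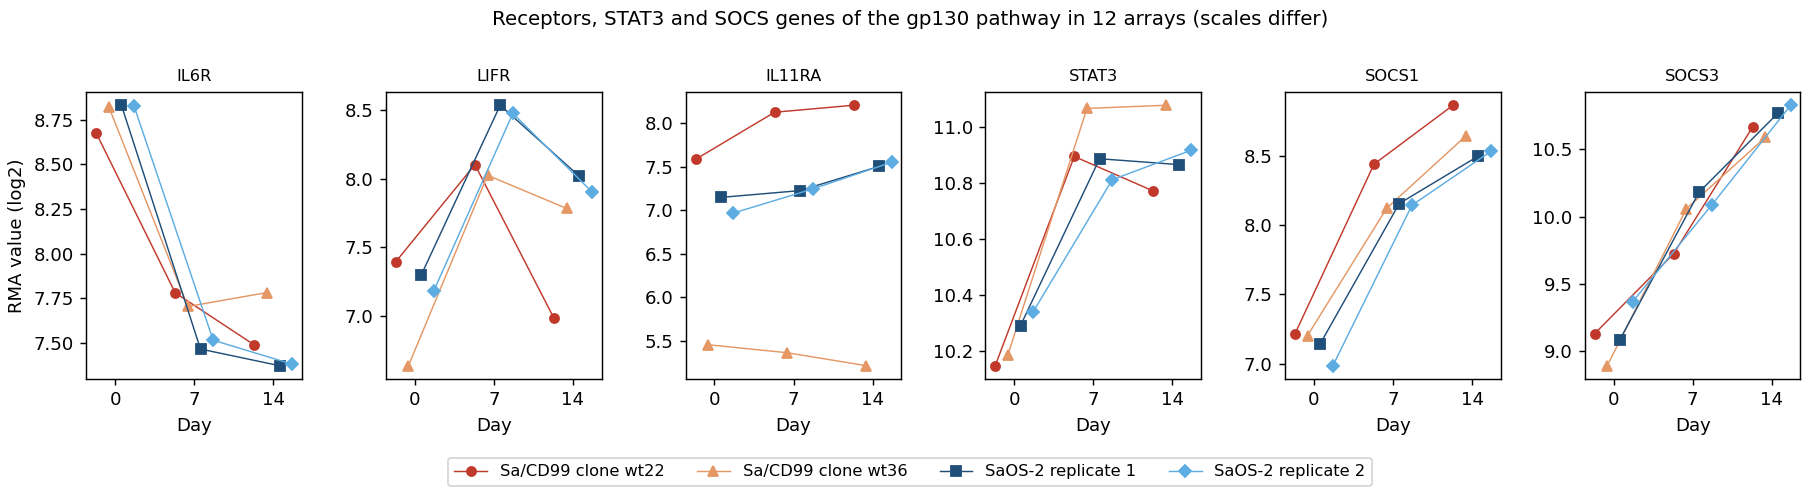
Log2 RMA value (vertical axis, own scale in each panel) by day (horizontal axis) for 3 receptor chains, STAT3 and 2 SOCS genes, 1 point per array, with arrays labelled Sa/CD99 (red and orange) left of SaOS-2 (blue). Lines join arrays of the same clone or replicate number. SOCS3 is higher and IL6R lower at days 7 and 14 than at day 0 in all 4 series, while IL11RA separates clone wt36, at 5.22 to 5.46, from all other arrays.

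CXCL12, which retains haematopoietic and osteoclast precursor cells in bone marrow, differed most of all members. It was 3.93 and 4.12 at day 0, 3.92 and 4.69 at day 7, and 4.37 and 4.95 at day 14 in the arrays labelled Sa/CD99, against 5.06 and 5.25, 6.70 and 6.45, and 7.44 and 7.70 in SaOS-2. The clones stayed at or below 100 on all days, whereas SaOS-2 climbed through that limit, and the lines did not overlap on any day. In the unfiltered fit the difference was −1.13 at day 0 (SE 0.25, adjusted p = 0.0942), −2.27 at day 7 (adjusted p = 0.00234) and −2.91 at day 14 (95% interval −3.45 to −2.37, adjusted p = 0.000422), a 7.52-fold lower signal at day 14. RMA signals near background understate such ratios.

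With time CXCL12 rose in SaOS-2 by 1.42 at day 7 (adjusted p = 0.00384) and by 2.41 at day 14 (adjusted p = 0.000337), both against day 0, while in the arrays labelled Sa/CD99 its changes of 0.28 and 0.63 did not pass (adjusted p of 0.553 and 0.149). The second probe set gave 4.92 and 4.93 at day 0, 4.88 and 4.68 at day 7, and 5.06 and 4.95 at day 14 in the arrays labelled Sa/CD99, against 5.07 and 5.19, 5.87 and 5.86, and 6.54 and 6.49 in SaOS-2, so that it never passed the signal limit. It followed the first nonetheless, with differences of −0.20 (adjusted p = 0.597), −1.09 (adjusted p = 0.000866) and −1.51 (adjusted p = 0.000102). The interaction at day 14 was −1.78 on the first probe set (unadjusted p = 0.000344, adjusted p = 0.521) and −1.31 on the second (SE 0.14, adjusted p = 0.0323), which passed. The day 14 line call was kept without any 1 of the 12 arrays; that of day 7 was lost without SaOS-2 array 1 of day 7 (−2.14, adjusted p = 0.0518), and the day 0 difference passed without either clone at day 7 (adjusted p = 0.0352). The SaOS-2 rise between day 7 and day 14, 0.995 (adjusted p = 0.0185), was lost without any 1 of the 4 arrays compared (0.87 to 1.12, adjusted p of 0.0583 to 0.127).

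CCL2, which recruits monocytes, was at or below 100 throughout but not flat. It was 4.12 and 5.05 at day 0, 4.22 and 5.67 at day 7, and 4.45 and 5.29 at day 14 in the arrays labelled Sa/CD99, against 4.11 and 4.49, 4.44 and 4.45, and 5.70 and 5.73 in SaOS-2. Clone wt36 was above clone wt22 on all 3 days, and SaOS-2 was highest at day 14. No difference passed: the line difference at day 14 was −0.84 (adjusted p = 0.537), and the SaOS-2 change by day 14 was 1.41 (adjusted p = 0.0778).

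CXCL8, a neutrophil chemokine that osteoclast precursors also answer to, stayed between 3.30 and 3.84 in all arrays, with line differences of 0.32, 0.12 and −0.01 and no call. Of a list of 33 other chemokines and receptors, 1 gene was tested, ACKR3, the atypical receptor that takes up CXCL12. It was 9.37 and 10.31, 7.89 and 8.87, and 8.38 and 7.91 at days 0, 7 and 14 in the arrays labelled Sa/CD99, against 9.64 and 9.74, 8.90 and 8.92, and 9.26 and 9.30 in SaOS-2. It fell in the arrays labelled Sa/CD99 by day 14 (log2 −1.69, adjusted p = 0.00652), its SaOS-2 change of −0.42 did not pass (adjusted p = 0.368), and the line difference at day 14 of −1.13 did not either (adjusted p = 0.147). CXCR4, the signalling receptor of CXCL12, was at 4.17 to 4.70 in all arrays. CXCL14, a chemokine that failed the signal filter and was named after its values were seen, was 4.04 to 5.11 in the 6 arrays labelled Sa/CD99 and 5.85 to 7.52 in the 6 SaOS-2 arrays, without overlap.

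A list of 28 NF-kB components and targets, 17 of them tested, held 1 call between the lines at day 0, 1 at day 7 and none at day 14. Of all filtered probe sets, 1.47%, 1.81% and 1.46% were called on these days. The gene was TNFRSF9, a costimulatory TNF receptor, at 9.01 and 9.03 in the arrays labelled Sa/CD99 at day 0 against 7.99 and 8.10 in SaOS-2, and at 8.59 and 9.03 at day 7 against 7.89 and 7.72. It was higher by 0.97 (SE 0.20, adjusted p = 0.0484) at day 0 and by 1.01 (adjusted p = 0.0335) at day 7. Both calls were lost without any 1 of the 6 SaOS-2 arrays, also where that array was of another day and enters only the error. The first was also lost without either clone at day 0, and the second without clone wt36 at day 7. The median difference of the 17 genes was 0.09, −0.04 and −0.06 at days 0, 7 and 14.

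As a description of shared patterns over the 12 arrays, with no test since the arrays share lines and days, LIF ran most like GPC1 (Pearson r 0.883), a heparan sulfate proteoglycan, and TGFBI (0.873), a matrix protein induced by TGF-beta, among 7426 genes tested. IL11 ran most like CKB (0.893), brain-type creatine kinase, and ZNF304 (0.854), a zinc finger factor. TNFRSF11B was closest to RALGAPA2 (0.924) and MANBA (0.899), CSF1 to SLC37A1 (0.881) and MALAT1 (0.868), and IL6ST to RBM7 (0.990) and FAR1 (0.984). The rank-based Spearman values of these pairs were 0.867 and 0.846 for LIF, and 0.657 and 0.699 for IL11. For TNFRSF11B they were 0.825 and 0.867, for CSF1 0.951 and 0.720, and for IL6ST 0.979 and 0.958. Among the members themselves, IL6 and CXCL8, both at background, correlated at 0.931, LIF and IL11 at 0.824 and CSF1 and CXCL12 at 0.730, while TNFRSF11B correlated at −0.730 with LIF and at −0.720 with IL11. In the same order the Spearman values were 0.951, 0.825, 0.608, −0.762 and −0.853.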

How the data were processed

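Total RNA of 12 samples was hybridised to Affymetrix whole-genome arrays. The authors quantified the arrays with RMA (affy, per the labels) on Bioconductor and R and deposited log2 values. Of 54675 probe sets, 62 controls were set aside, 41091 named 1 gene, 1801 several and 11721 none; symbols were updated by gene identifier. As in the study's methods, probe sets at or below a signal of 100 in at least 75% of arrays (9 of 12) or with an interquartile range at or below the median (0.219) were dropped, leaving 12894. limma 3.58.1 (R 4.3.3) fitted 6 group means with 6 residual degrees of freedom; 11 comparisons were adjusted by Benjamini-Hochberg over all probe sets tested, two-sided, and called at 0.05 and 1.5-fold. Clone numbers pair the Sa/CD99 arrays across days (deviations correlated at 0.58, 0.32 and 0.63), while the SaOS-2 numbers do not (−0.04, 0.24 and −0.05). Members, gene lists and tests were chosen with earlier results of these data known. By rule, all members, both CD99 probe sets, up to 3 called list genes per line comparison and the 2 genes most like each filtered member are named; exceptions are marked. The fit was tested on simulated data. The number of arrays, 2 a group, limits the precision. Alternatives covered filters, normalization, array weights, blocks, probe sets and leaving out each array.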

Additional observations from a re-analysis of the deposited data

Results flagged for a closer look

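LIF and IL11 stood out because in each line the arrays of day 14 lay beyond those of day 0, in opposite directions. The change of each line was also larger than its SE. The change by day 14 in the arrays labelled Sa/CD99 minus that in SaOS-2 was −2.18 for LIF (unadjusted p = 0.000247, adjusted p = 0.398) and −2.28 for IL11 (unadjusted p = 0.0117, adjusted p = 0.999) on the log2 scale. Neither passed the interaction test after adjustment over 12894 probe sets.

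For CXCL12, the second probe set passed the interaction test in the fit of all 54613 probe sets, with a change by day 14 that was −1.31 in the arrays labelled Sa/CD99 relative to SaOS-2 (adjusted p = 0.0323). It was at or below a signal of 100 in all 12 arrays, and the first probe set gave −1.78 (adjusted p = 0.521).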

How the results depend on the processing

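Over 47 member results and 1213 alternatives, 1099 left direction and call as they were, 55 ended a call, 36 made one and 23 turned the direction, always of a difference that was not called. Counts of called members moved as follows. Between the lines at day 14 (2 called), quantile normalization again and the mean of a gene's probe sets gave 1, and the compared groups alone gave 0. At day 7 (0 called) no filter gave 1, CXCL12. In the arrays labelled Sa/CD99, the count of 1 at day 7 against day 0 became 2 with the fixed replicate block (LIF and IL11) and with adjusted p alone. The 3 at day 14 against day 0 became 0 with the compared groups alone, as did the 1 at day 14 against day 7, also 0 with array weights and with the mean of probe sets. In SaOS-2, day 7 against day 0 (1) gave 0 with the signal filter only and 2 with adjusted p alone, and day 14 against day 0 (0) gave 1 with no filter or adjusted p alone and 2 with compared groups alone or array weights. Leaving out 1 array gave 0 to 2 calls between the lines at day 14, and 1 to 2 (day 7 against day 0) and 0 to 1 (day 14 against day 7) in the arrays labelled Sa/CD99, against 0 to 1 in SaOS-2 at day 7 against day 0. The replicate block also called IL11 in SaOS-2 at day 14 against day 7 (1.14, adjusted p = 0.0222) and changed no other call. The causes were not tested.

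Fits of 1 clone alone, chosen after seeing the data, take their spread from the SaOS-2 pairs and assume that the lone clone array varies like them. Their line differences went both ways. Clone wt36 alone gave 0.69 for LIF at day 0 and −0.96 for IL11 at day 7. At day 14 TNFRSF11B was higher by 0.51 with clone wt22 alone and by 0.61 with clone wt36 alone. LIF on that day was −1.44 and −2.15. Between the lines, clone wt36 gave 1 call at day 0 and 1 at day 7, and clone wt22 gave 4 at day 14. For day changes in the arrays labelled Sa/CD99, either clone gave 2 at day 7 against day 0 and clone wt36 gave 2 at day 14 against day 7. In SaOS-2 at day 14 against day 0, either fit gave 2. The interaction gave 1 (wt22) and 2 (wt36) at day 7, and 5 (wt22) and 2 (wt36) at day 14.

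Line differences that turned, by clone wt22 alone, were TNFRSF11B (−0.20), IL6ST (0.28) and CCL2 (−0.18) at day 0, IL11 (0.0883) and CCL2 (−0.23) at day 7 and TNFSF11 (0.0512) at day 14. By clone wt36 alone they were LIF at day 7 (0.0497) and CXCL8 at day 14 (0.0195). Normalization turned CSF1 at day 7 (0.0104 by quantiles, 0.0162 by centring) and CXCL8 at day 14 (0.0036 by centring). Leaving out 1 array gave −0.20 to 0.43 for TNFRSF11B, −0.0284 to 0.10 for TNFSF11, −0.32 to 0.28 for IL6ST and −0.18 to 0.75 for CCL2 at day 0. At day 7 it gave −0.49 to 0.0497 for LIF, −0.96 to 0.0883 for IL11 and −0.23 to 1.23 for CCL2, and at day 14 −0.10 to 0.0512 for TNFSF11, −0.20 to 0.0381 for IL6 and −0.0908 to 0.0653 for CXCL8. TNFSF11, IL6, CCL2 and CXCL8 lay near background, where a difference is hard to measure.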
